A study of Mus musculus with 44 samples.

Results

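The measurements described here are the transcript levels of Dppa2 and Dppa4 in single mouse 2-cell embryos, together with the other transcripts that rise or fall with them between embryos of one litter. Both genes were taken by their symbols, and they make up 2 of the 35269 rows of a table that holds 35228 distinct gene symbols for 44 embryos. Dppa2 and Dppa4 encode small nuclear proteins with a SAP DNA-binding domain that form a heterodimer. In embryonic stem cells they bind the promoter of Dux, the transcription factor that switches on the 2-cell programme, and keep bivalent developmental promoters free of DNA methylation. Their RNA is loaded into the oocyte by the mother and is made again from the embryo's own genome at zygotic genome activation (ZGA).

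Embryos came from natural matings of 3 crosses, each set up in 2 matings, which gave 6 litters. The WT embryos (n = 14, 10 from mating 1 and 4 from mating 2) came from C57Bl/6 Dppa2/4+/+ females and Dppa2/4+/+ males. The HET1 embryos (n = 15, 7 and 8) came from Dppa2/4m- females, in which both genes are deleted in growing oocytes by Zp3-Cre, mated with Dppa2/4+/+ males, so that all of them are Dppa2/4+/- with an intact paternal allele. Dppa2/4m- females mated with Dppa2/4+/- males gave the HET2 embryos, Dppa2/4+/- (n = 5, 4 and 1), and the HOM embryos, Dppa2/4-/- (n = 10, 3 and 7). The study told HET2 from HOM embryos by the Dppa2 and Dppa4 transcripts themselves, so the levels of both genes in these littermates are given below as a description, without a test. Cross and litter go together between WT and HET1 embryos, and an effect of the litter or of the mother cannot be told apart from the genotype. WT embryos also differ from the others in carrying maternal Dppa2 and Dppa4 RNA as well as 2 intact alleles.

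Dppa4 and Dppa2 lie next to each other on the plus strand of chromosome 16 (GRCm38), Dppa4 at chr16:48283733-48294237 and Dppa2 at chr16:48303908-48319723, with 9670 bp between them. In the floxed allele the loxP sites stand before exon 2 of Dppa4 and behind exon 7 of Dppa2 in the study's numbering, so that Cre removes most coding sequence of both genes at once. Exon 7 is the last exon of the shorter annotated Dppa2 transcript and the last but one of the longer, and which of them was meant is not given in the sources used here. The 2 coding stretches near the edges of the deletion are shown to place it, and the Dppa2 stretch is lost only under the numbering of the shorter transcript. Dppa4 exon 2 is 118 bp long (chr16:48287878-48287995), and the coding end of Dppa2, the start of exon 8 of its longer annotated transcript, is 79 bp long (chr16:48318633-48318711), with the stop codon in capitals. Both sequences come from the GENCODE transcripts of GRCm38.
Dppa4 exon 2: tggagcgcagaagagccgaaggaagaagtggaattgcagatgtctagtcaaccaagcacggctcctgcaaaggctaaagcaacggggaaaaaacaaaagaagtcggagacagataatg
Dppa2 coding end: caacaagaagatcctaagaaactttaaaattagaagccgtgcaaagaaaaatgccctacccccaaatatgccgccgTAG
The exonic length is 2447 bp for Dppa2 and 1479 bp for Dppa4, a log2 length ratio of 0.73, while their coding lengths are close, at 903 and 888 bp. Exon 1 of Dppa4, with 24 coding bases, lies outside the loxP sites, so reads there do not show an intact gene.

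Levels are log2 RPM (reads per 1000000 reads of the embryo), a share on a log2 scale in which 1 unit is a change by a factor of 2. Total reads ran from 247667 to 3163026 per embryo, and whole reads could be recovered from the deposited values. RPM is a share of an embryo's RNA, so less of 1 transcript and more of all others cannot be told apart. Nothing in the libraries marks single molecules, so intervals on reads cover counting error only, and p-values measure the spread between embryos.

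Dppa2 was abundant in WT embryos and lower in both kinds of heterozygote. In WT embryos its level ran from 7.67 to 9.40 log2 RPM with a median of 8.39 (184 to 2144 reads). In HET1 embryos it ran from 5.33 to 8.43 with a median of 6.10 (11 to 489 reads). Only 2 HET1 embryos, a and c with 8.34 and 8.43, fell inside the WT range. Dppa4 was lower than Dppa2 in reads in most embryos and showed the same order of groups. In WT embryos Dppa4 ran from 6.33 to 8.47 log2 RPM with a median of 7.12 (79 to 499 reads), and in HET1 embryos from 3.40 to 7.36 with a median of 5.73 (3 to 133 reads). The groups overlapped in HET1 embryos b and e, with 7.36 and 7.34, which were above the WT median.

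The HET1 mean differed from the WT mean by -1.99 ± 0.31 (SE) log2 units for Dppa2 (limma adjusted p = 0.00012) and by -1.63 ± 0.31 for Dppa4 (limma adjusted p = 0.00079). HET1 embryos thus held 25.2% of the WT level of Dppa2 (95% interval 16.4 to 38.7%) and 32.4% of that of Dppa4 (20.9 to 50.0%). Median total reads were 528166 in HET1 and 1770010 in WT embryos, and the part of this in the difference was not tested. Of 6919 genes tested 6.85% were lower in HET1 embryos at an adjusted p under 0.05 and 8.27% were higher, while the median difference over all genes was 0.10. Of 34 maternal transcripts tested 14 were higher and none lower, and of 36 major ZGA genes 8 were lower and none higher. Their median differences were 1.03 and -0.26. Ranked by p, Dppa2 stood at 2 and Dppa4 at 25 among all genes. The order of group levels was WT, then HET1 and HET2 with no clear step between them, then HOM. A fit that treated the litter as random gave -1.90 and -1.58 without a call (limma adjusted p = 0.563 for both), with only 2 litters in each group. Without the WT litter of mating 1 the adjusted p by limma was 0.0835 and 0.111.

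**Figure D1:**
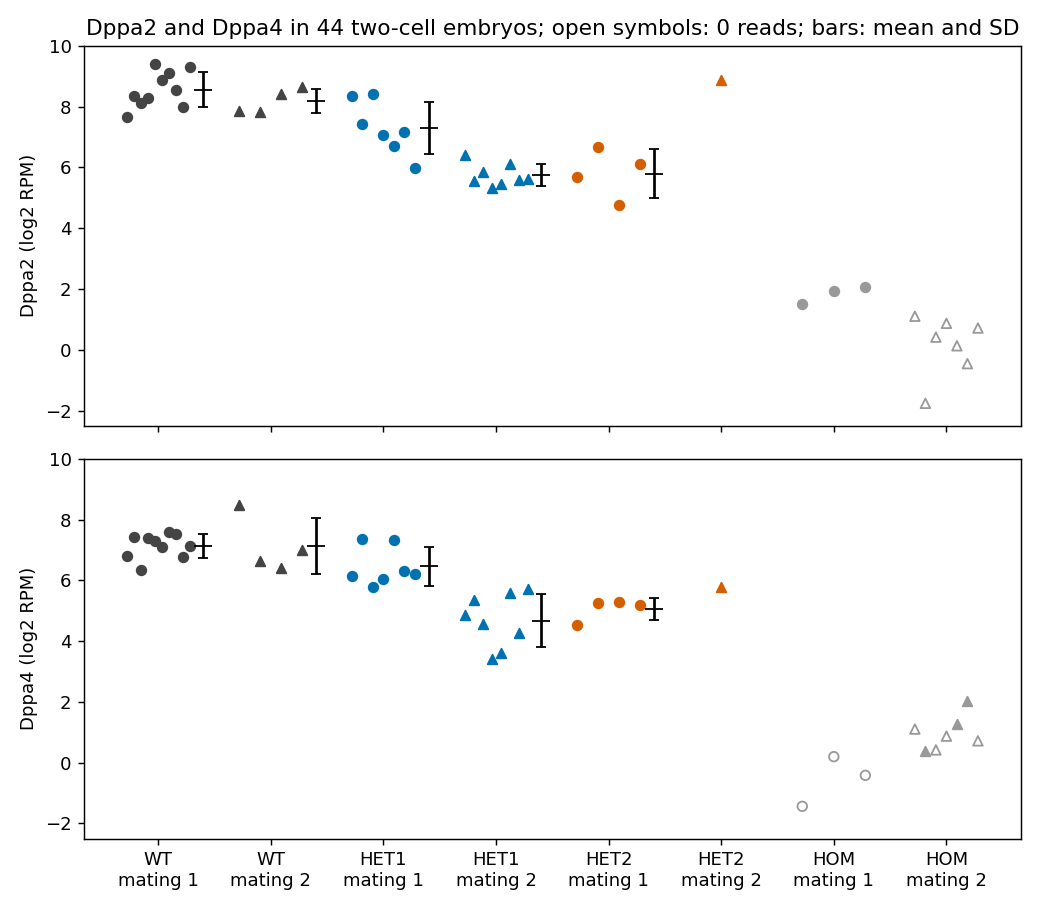
Levels of Dppa2 (top) and Dppa4 (bottom) in log2 RPM, with 1 point per embryo in 8 columns of litter and group. Open symbols are embryos with 0 reads, drawn at the value the table gives them, and bars are the mean ± SD. The second HET1 litter sits below the first for both genes, and HET2 e stands above its group for Dppa2.

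The level depended strongly on the litter within the HET1 genotype. The 7 embryos of the first HET1 litter had Dppa2 levels from 6.00 to 8.43 (median 7.18), and the 8 embryos of the second from 5.33 to 6.42 (median 5.60). For Dppa4 the first litter ran from 5.78 to 7.36 (median 6.20) and the second from 3.40 to 5.73 (median 4.71). For Dppa4 the 2 ranges nearly met, at 5.78 and 5.73, and the share of all genes with such a gap was not counted. For Dppa2 the overlap came from HET1 g with 6.00, below HET1 h with 6.42 and HET1 m with 6.10.

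The summed level of maternal transcripts also differed between them, at 7091 to 16952 RPM in the first and 25468 to 41827 RPM in the second, and its part was not tested. Between these litters Dppa2 differed by -1.56 log2 units, second minus first (limma adjusted p = 0.000205), and Dppa4 by -1.79 (limma adjusted p = 0.000203), in a contrast in which 26.1% of all genes tested were lower. The 2 WT litters had the same Dppa4 mean, 7.13 ± 0.40 (SD, n = 10) and 7.13 ± 0.93 (n = 4), and Dppa2 means of 8.57 ± 0.58 and 8.19 ± 0.40, a difference of -0.38 (limma adjusted p = 0.584). In the second WT litter Dppa4 was at 8.47 in WT k and at 6.63, 6.41 and 6.99 in WT l, m and n. The equal Dppa4 means, and the WT litter effect used next, thus rest on WT k. The difference between the litter effects of HET1 and WT was -1.19 for Dppa2 (limma adjusted p = 0.158) and -1.78 for Dppa4 (0.0592), and neither passed the test. More negative litter effects in HET1 were called for 1.94% of all genes.

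Set against all WT embryos, the first HET1 litter held 44.9% of the WT level of Dppa2 (limma adjusted p = 0.0378, and 0.0729 in the fit without the second HET1 litter) and 62.7% of that of Dppa4 (0.183, not past the threshold). Only 0.491% of genes were lower in this litter. The second HET1 litter held 15.2% of the WT level of Dppa2 (limma adjusted p = 1.56e-10) and 18.2% of that of Dppa4 (2.77e-08), in a contrast with 21.5% of genes lower. Each contrast holds a single HET1 litter, so its p measures the spread between embryos and cannot speak for the genotype. The fold against WT is therefore a mean over 2 litters that differ from each other by more than the first differs from WT.

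The 5 HET2 embryos, chosen by these transcripts, varied widely in Dppa2 and little in Dppa4. Their Dppa2 levels were 5.67, 6.66, 4.77, 6.11 and 8.88 log2 RPM in embryos a to e, from 109, 112, 19, 76 and 814 reads. Their Dppa4 levels were 4.52, 5.24, 5.27, 5.18 and 5.77, from 49, 42, 27, 40 and 94 reads. HET2 e, the only heterozygote of its litter, had a Dppa2 level inside the WT range and a Dppa4 level below all WT embryos. The HET2 means differed from WT by -2.04 log2 units for Dppa2 and -1.93 for Dppa4, and HET1 minus HET2 was 0.05 and 0.31.

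The 10 HOM embryos held few reads of either gene, as their assignment requires. In the 3 HOM embryos of mating 1, Dppa2 had 7, 3 and 5 reads (2.87, 3.82 and 4.15 RPM) and Dppa4 had 0 in each. In the 7 of mating 2, Dppa2 had 0 reads in each, and Dppa4 had 0, 4, 0, 0, 2, 5 and 0 reads in embryos d to j. The few reads thus belonged to Dppa2 in one litter and to Dppa4 in the other. In these embryos 3 reads, the limit that a count of 0 allows, stand for 0.984 to 7.17 RPM, so a lower level was not detectable at this depth.

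Per kilobase of exon the genes were closer to each other than in reads. The median level in WT embryos was 137 RPM per kb for Dppa2 and 94.0 for Dppa4. In HET1 embryos it was 28.1 and 35.8, and in HET2 embryos 28.2 and 25.6. The order of the genes by this median was thus reversed in HET1 embryos, but not embryo by embryo. The median log2 ratio per kilobase within HET1 embryos was 0.27, with Dppa2 ahead in 9 of 15. The choice of the Dppa2 transcript also moves the length ratio from 0.73 to 0.40 on the log2 scale.

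Both genes are counted in the same library, so their ratio is not scaled by total reads. The log2 ratio of Dppa2 to Dppa4 reads ran from -0.62 to 2.16 in WT embryos (median 1.37, mean 1.33 ± 0.72 SD). It ran from -0.64 to 2.65 in HET1 embryos (median 1.00, mean 0.97 ± 0.98) and from -0.51 to 3.11 in HET2 embryos (median 1.15, mean 1.22 ± 1.29). All groups overlapped, and reads of Dppa2 outnumbered those of Dppa4 in 13 of 14 WT, 12 of 15 HET1 and 4 of 5 HET2 embryos. Per kilobase the mean log2 ratio was 0.60 in WT, 0.24 in HET1 and 0.49 in HET2 embryos, and Dppa2 was ahead in 13, 9 and 4 of them.

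No difference in the ratio was called between HET1 and WT or between litters, with a permutation adjusted p of 0.797 each over 5 comparisons. HET1 minus WT was -0.36 (permutation p = 0.269). HET2 minus WT was -0.11 and HET1 minus HET2 was -0.25. These values are a description, since HET2 embryos were assigned by the transcripts that make up the ratio. Between litters, mating 2 minus mating 1 was -0.37 in WT (exact permutation p = 0.438) and 0.22 in HET1 (exact permutation p = 0.669). The level of the pair was lower in HET1 embryos, while a change in its ratio was not detectable with this number of embryos.

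**Figure D2:**
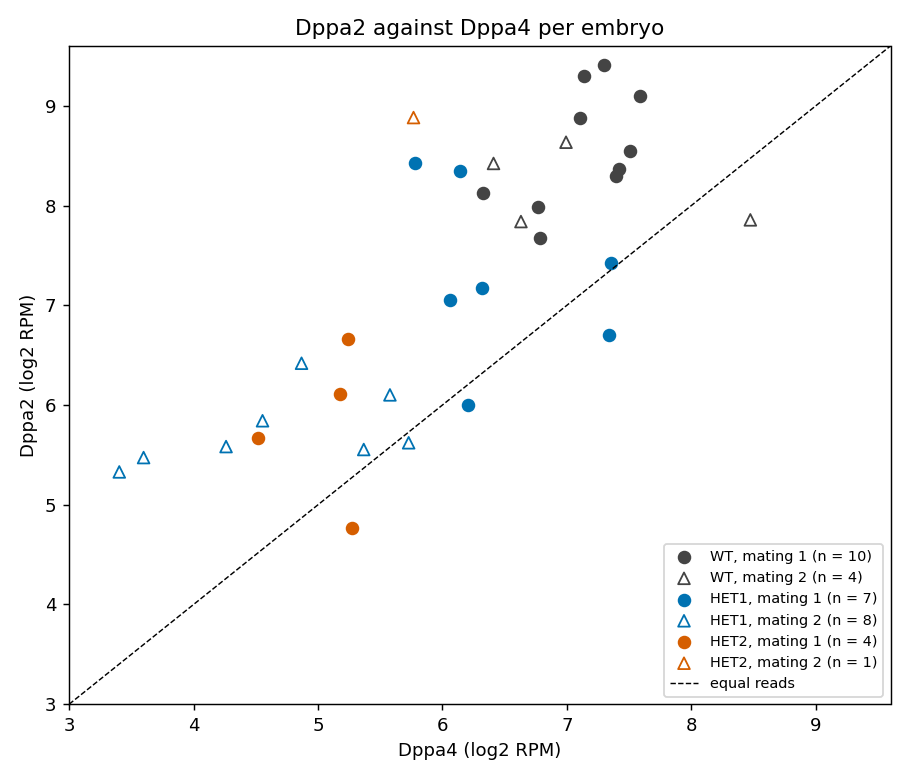
Dppa2 level against Dppa4 level in log2 RPM, 1 point per WT, HET1 or HET2 embryo, with the dashed line where both have equal reads. WT embryos lie at the upper right except WT k, which has the highest Dppa4 level of all (8.47) below the line, and HET2 e lies far above it.

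Single embryos did differ in the ratio beyond counting error. Dppa2 made up 72.8% of the pair's reads pooled over WT embryos, and the exact 95% binomial interval lay above this share in 5 WT embryos and below it in 6. WT k was farthest below, with 247 Dppa2 and 379 Dppa4 reads, a share of 39.5% (35.6 to 43.4%). WT j was the highest, with 861 and 192 reads and 81.8% (79.3 to 84.1%). These 2 embryos also had the fewest genes with reads of the WT group, 9403 for j and 9169 for k, and the part of this in their ratios was not tested.

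In HET1 embryos the pooled share was 71.1%, with 2 embryos above it and 5 below. HET1 c had 489 Dppa2 and 78 Dppa4 reads (86.2%, 83.1 to 89.0%), while HET1 e of the same litter had 47 and 73 (39.2%, 30.4 to 48.5%). Littermates of one genotype thus differed in which of the genes had more reads. The largest share among embryos with an intact allele was that of HET2 e, with 89.6% (87.5 to 91.6%), against 41.3% (27.0 to 56.8%) in HET2 c.

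**Figure D3:**
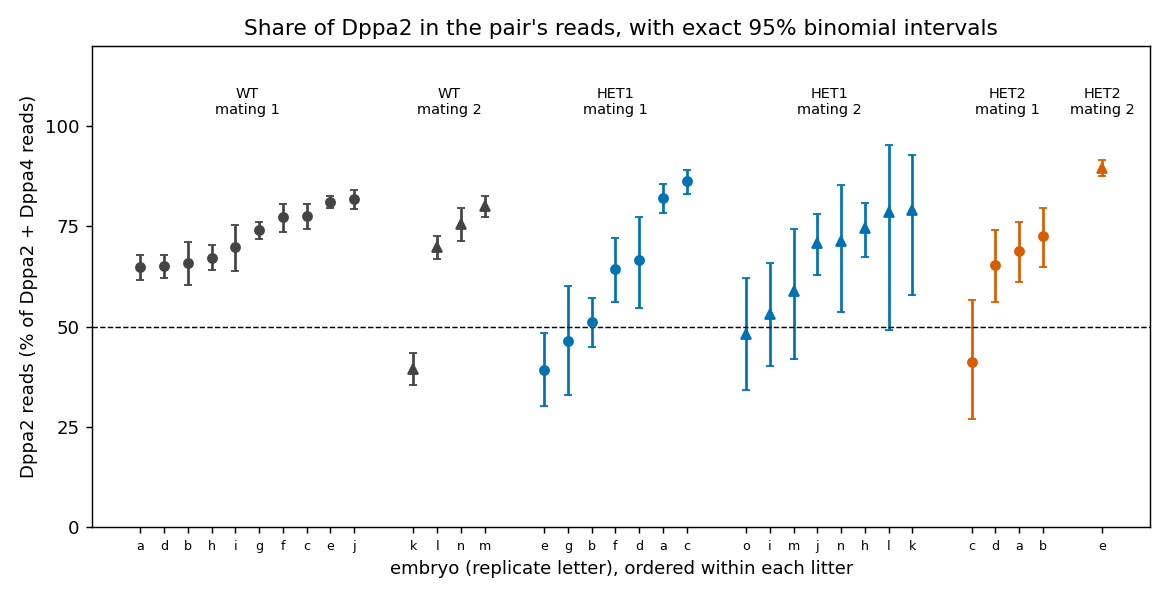
Share of Dppa2 in the summed reads of Dppa2 and Dppa4, in percent, with exact 95% binomial intervals, 1 point per embryo and the line at 50%. Most WT, HET1 and HET2 embryos lie above the line, and WT k (39.5%) and HET1 e (39.2%) have intervals wholly below it.

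Both genes were higher in the same HET1 litter, while their relation within litters was uncertain. Over the 15 HET1 embryos Pearson's r between Dppa2 and Dppa4 levels was 0.62 (permutation p = 0.0149, adjusted p = 0.179 over the 24 relations computed) and Spearman's rho was 0.76 (permutation p = 0.00121, adjusted p = 0.0290). Without HET1 a and c, the embryos farthest from the median of Dppa2, r was 0.78. Within the first HET1 litter r was -0.33 (n = 7, exact p = 0.489, rho -0.36, exact p = 0.444) and -0.42 without the 2 farthest embryos. Within the second it was 0.48 (n = 8, exact p = 0.227, rho 0.62, exact p = 0.115) and 0.52 without them. The pooled value includes the step between the litters.

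Among the 14 WT embryos r was 0.16 (permutation p = 0.596) and rho 0.31 (permutation p = 0.279), and r was 0.15 without WT e and j. Within the WT litter of mating 1 it was 0.53 (n = 10, permutation p = 0.111, rho 0.52, permutation p = 0.135), and 0.65 without the same embryos. With litter means removed, r over the 29 WT and HET1 embryos was 0.06 (permutation p = 0.747), rho was 0.19 (permutation p = 0.317) and r was 0.12 without HET1 c and g. No within-litter relation passed the test after adjustment over 24 relations. Without WT j and k the r of WT embryos was 0.57 (permutation p = 0.0526). After re-centring of embryos r was 0.42 in WT (permutation p = 0.135), 0.51 in HET1 (permutation p = 0.0499) and 0.23 over both with litter means removed (permutation p = 0.152).

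Depth was set beside the level of each gene, and no relation with it passed the adjustment over the 24 relations. In the first HET1 litter r between the Dppa2 level and log2 total reads was 0.90 (n = 7, exact p = 0.00595, adjusted p = 0.143), rho was 0.89 (exact p = 0.0123) and r was 0.88 without the 2 farthest embryos. HET1 a and c, the embryos with the most Dppa2, were also the deepest of that litter, at 1235893 and 1417242 reads. In the second HET1 litter it was 0.49 (n = 8, exact p = 0.202) and 0.78 without the 2 farthest embryos, and in the WT litter of mating 1 it was 0.13 (permutation p = 0.705). For Dppa4 r with total reads was -0.24 in the first HET1 litter (n = 7, exact p = 0.568). With litter means removed r was 0.39 for Dppa2 (permutation p = 0.0389, adjusted p = 0.311) and -0.07 for Dppa4 (permutation p = 0.758) over 29 embryos. For the log2 ratio r with total reads was 0.76 in the first HET1 litter (n = 7, exact p = 0.0560) and 0.57 without HET1 c and e. The part of depth in the Dppa2 level was not tested beyond these values.

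To find transcripts that follow each gene from embryo to embryo, every gene's level was regressed on that of Dppa2 or Dppa4 with the litter in the model, over the 34 WT, HET1 and HET2 embryos. A slope is the change in log2 RPM of a gene per log2 unit of Dppa2 or Dppa4 within a litter. Dppa4 was not among the followers of Dppa2, with a slope of 0.06 (limma adjusted p = 0.919), nor Dppa2 among those of Dppa4, with 0.05 (0.891). Of 6918 genes, 4 rose with Dppa2 (0.0578%) and 8 fell (0.116%), while 29 rose with Dppa4 (0.419%) and 52 fell (0.752%). No gene was called for both.

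The 4 genes that rose with Dppa2 were Ddias, an anti-apoptotic factor, Pafah1b2, a catalytic subunit of platelet-activating factor acetylhydrolase, Npm1, the nucleolar chaperone of ribosome assembly, and the magnesium transporter gene Nipal1. In the first HET1 litter Ddias (chr7:92857525-92874247) was at 9.82, 7.48, 9.55, 8.41, 6.90, 8.03 and 7.62 log2 RPM in embryos a to g, where Dppa2 was at 8.34, 7.42, 8.43, 7.06, 6.70, 7.18 and 6.00. The highest Ddias values were those of a and c, the embryos highest in Dppa2 and in total reads. In the second HET1 litter Ddias was highest, at 7.98, in h, which had the most Dppa2 (6.42), and lowest, at 5.28, in m, which had the next most (6.10). Over all litters the slope of Ddias was 0.94 ± 0.19 (SE, limma adjusted p = 0.0298). The slopes of Pafah1b2 and Npm1 were 0.70 ± 0.15 and 0.51 ± 0.11, and that of Nipal1 was 1.32 ± 0.30, with limma adjusted p = 0.0298, 0.0327 and 0.0339.

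The 8 genes that fell with Dppa2 were Tcl1 and Tcl1b1, AKT co-activators of 1 gene cluster, Btg4, the adaptor that brings the CCR4-NOT deadenylase to maternal mRNAs, the RING finger gene Rfpl4, the synaptonemal complex gene Syce2, and Umodl1, Slc25a48 and Ccndbp1. Tcl1 (chr12:105216750-105222793) was at 6.07, 9.15, 6.00, 7.78, 8.38, 9.96 and 8.73 log2 RPM in HET1 embryos a to g, and was lowest where Dppa2 was highest. In HET2 embryos a to d it was at 9.09, 8.08, 12.01 and 10.99, highest in c, which had the least Dppa2. Its slope was -1.26 ± 0.26 and that of Tcl1b1 was -1.10 ± 0.24, and reads of near-identical copies in this family may be split between them. Slc25a48 had -1.37 ± 0.30, Umodl1 -1.20 ± 0.25, Rfpl4 -0.97 ± 0.21, Syce2 -0.80 ± 0.17, Ccndbp1 -0.76 ± 0.17 and Btg4 -0.75 ± 0.17 (limma adjusted p = 0.0298 for each of the 8).

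The slope on Dppa2 differed between HET1 and WT embryos for 0.0434% of genes and that on Dppa4 for 2.39%, none of them a follower of Dppa2 and 1 of them a follower of Dppa4. Without WT j and k such a difference was called by limma for 1 gene on Dppa2 and for 0 on Dppa4, with 1084 and 513 genes at an unadjusted p under 0.05. The 12 were chosen on slopes over these embryos, so the like sign of all 12 in WT and in HET1 embryos alone is no independent support. On Dppa4, 2 of the 12 had the same sign as on Dppa2. WT or HET1 embryos alone gave 0 called genes by limma, with 713 and 674 at an unadjusted p under 0.05. The list is short, and leaving out HET2 b or HET2 c gave 0 genes and leaving out HET2 d gave 61. Re-centring each embryo on its own median moved the median slope of all genes from -0.09 to 0.03 and gave 1015 genes, 11 of the 12 among them. With log2 total reads in the model 7 genes were called, 4 of them from the 12, namely Umodl1, Btg4, Rfpl4 and Nipal1. The other 8 lost the call, Ddias with a slope of 0.78 and Tcl1 with -1.14 (limma adjusted p = 0.114 for both).

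**Figure D4:**
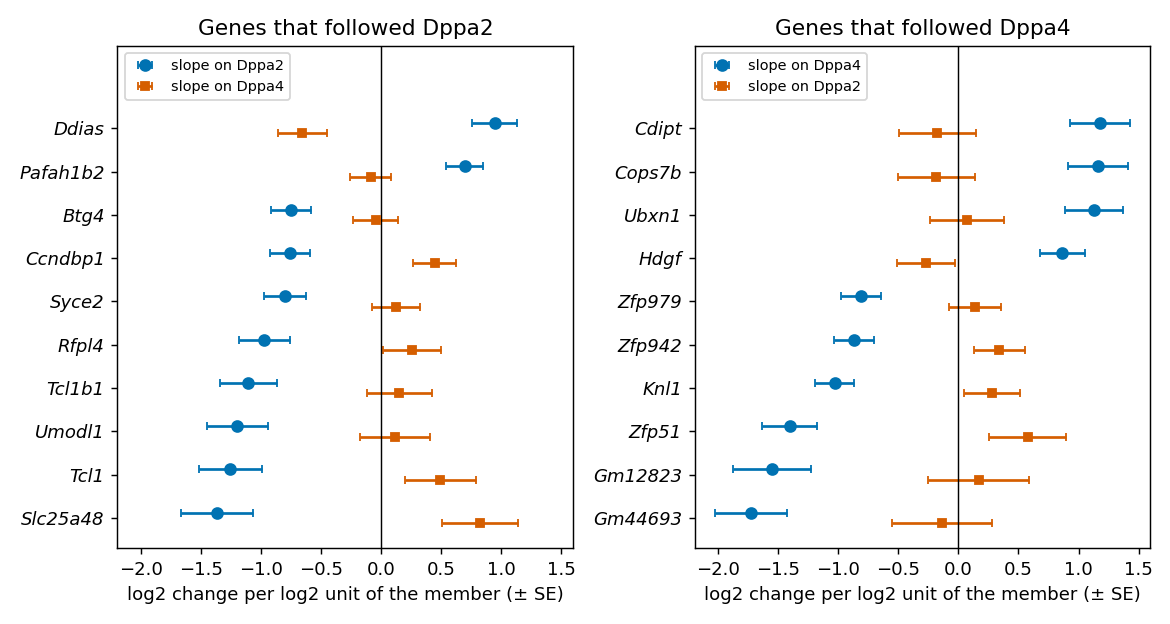
Within-litter slopes (± SE) of the 10 followers of Dppa2 and the 10 of Dppa4 with the smallest p, each on both genes, in log2 RPM per log2 RPM. Ddias and Pafah1b2 lie right of 0 for Dppa2, Knl1 and the zinc finger genes left of 0 for Dppa4, and the slope on the other gene is mostly of the opposite sign or near 0.

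The genes that fell with Dppa4 included Knl1, the kinetochore scaffold, 3 KRAB zinc finger genes, Zfp51, Zfp942 and Zfp979, and the predicted genes Gm44693 and Gm12823. Knl1 (chr2:119047119-119105501) was at 8.37, 6.49, 8.15, 7.62, 6.28, 7.28 and 7.34 log2 RPM in HET1 embryos a to g, where Dppa4 was at 6.14, 7.36, 5.78, 6.06, 7.34, 6.32 and 6.20. It was lowest in b and e, which had the most Dppa4. In WT k, the embryo with the highest Dppa4 level, Knl1 was at 3.61. Its slope was -1.03 ± 0.16 (limma adjusted p = 0.000748).

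Zfp51 had a slope of -1.40 ± 0.23 on Dppa4, Zfp942 of -0.87 ± 0.16 and Zfp979 of -0.81 ± 0.16 (limma adjusted p = 0.000748, 0.00527 and 0.0159). Zinc finger genes of this family share sequence, so reads may be split between copies. Gm44693 had -1.72 ± 0.30 and Gm12823 had -1.55 ± 0.32, and a read from the opposite strand cannot be told apart in these unstranded counts. Among genes of the Polycomb list, Bmi1, a subunit of Polycomb repressive complex 1, fell with a slope of -0.49 (limma adjusted p = 0.0218), which was -0.13 with re-centred embryos (limma adjusted p = 0.804).

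The genes with the smallest p among those that rose with Dppa4 were Cdipt, the phosphatidylinositol synthase, Ubxn1, a cofactor of the p97 ATPase, Cops7b, a COP9 signalosome subunit, and Hdgf, a chromatin-binding growth factor. Cdipt (chr7:126975914-126980501) was at 6.05, 7.39, 6.00, 5.79, 7.40, 5.91 and 6.30 log2 RPM in HET1 embryos a to g, highest in b and e as Dppa4 was. In WT k it was at 7.06, the highest of the WT group, and Hdgf was at 9.39. The slopes were 1.18 ± 0.25 for Cdipt, 1.13 ± 0.24 for Ubxn1, 1.16 ± 0.25 for Cops7b and 0.87 ± 0.19 for Hdgf (limma adjusted p = 0.0194, 0.0213, 0.0213 and 0.0218).

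The 81 followers of Dppa4 likewise had one sign in WT and HET1 embryos alone, which their choice on the same embryos largely fixes, and 10 of the 81 had the same sign on Dppa2. Re-centring each embryo on its median left 0 of them called by limma, with 930 genes at an unadjusted p under 0.05. All 81 kept their sign, with slopes of 1.06 for Cops7b, -1.11 for Zfp51, -0.66 for Zfp942 and -0.73 for Knl1. With log2 total reads in the model 57 of the 81 stayed called. A fit of limma voom on the recovered reads called 12 genes, 10 of them from the 81. The balance of rising and falling genes was not stable. Without WT j and k 504 genes were called, 59 of the 81 among them, and 430 rose and 74 fell. Without the WT litter of mating 2, 44 rose and 13 fell. WT embryos alone gave 307 genes, of which 24 rose and 283 fell, and HET1 embryos alone gave 0.

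**Figure D5:**
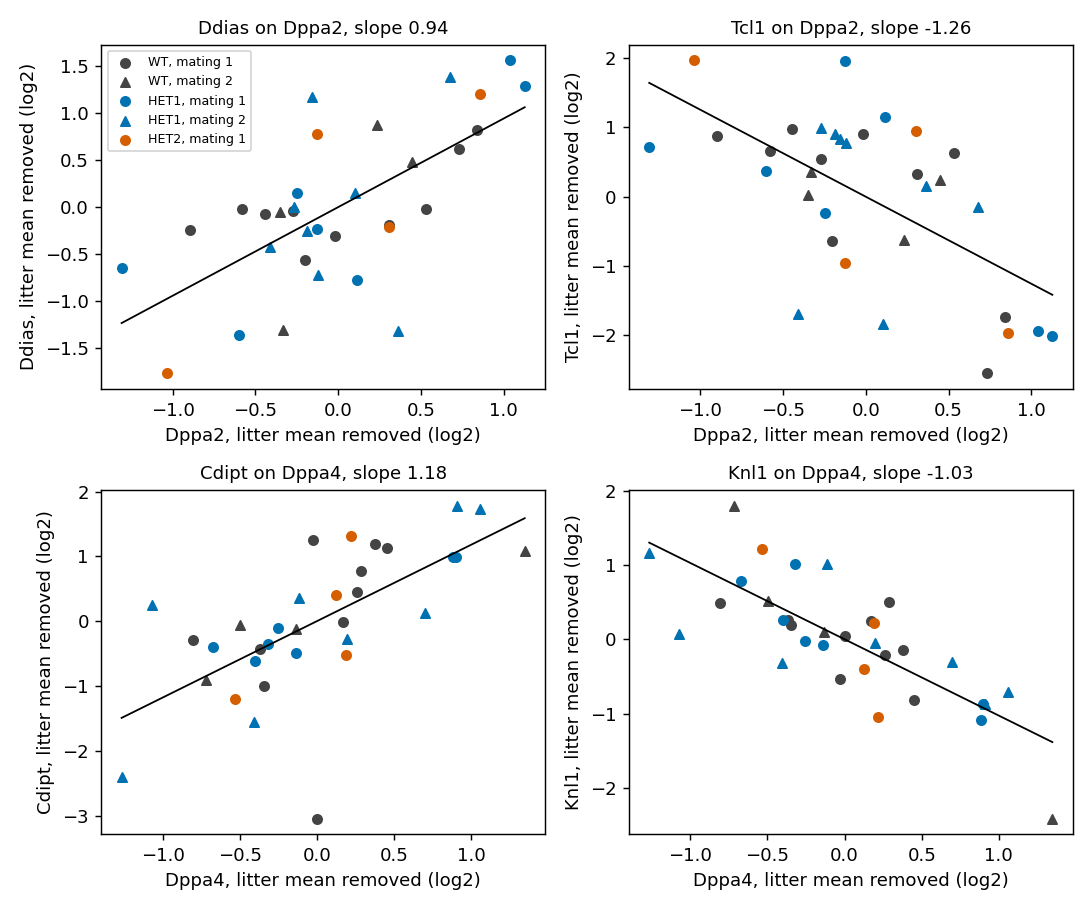
Levels of Ddias and Tcl1 against Dppa2, and of Cdipt and Knl1 against Dppa4, 1 point per embryo, in log2 RPM with the mean of each litter removed (HET2 e, alone in its litter, is not shown). Ddias and Cdipt rise and Tcl1 and Knl1 fall with the member on the x axis, and WT k lies at the far right of the Dppa4 panels.

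The HOM embryos give a further comparison, since they lack both genes and share their litters with HET2. None of the 12 followers of Dppa2 and none of the 81 followers of Dppa4 was called between HOM and HET2 by limma, in a contrast in which 0.0289% of all genes tested were called. The genes tested included Dppa2 and Dppa4 themselves, by which these embryos were assigned. With 5 HET2 embryos, 1 of them in mating 2, the lack of a call does not show that the followers are unchanged. With the litter in the model, their HOM minus HET2 differences ran from -0.69 to 0.73 and from -1.19 to 1.60 on the log2 scale. The litter-adjusted difference was -0.15 for Ddias, 0.64 for Tcl1, -0.20 for Knl1 and 0.67 for Cdipt. The litters hold unequal numbers of both groups, and the plain means run the other way for Ddias (HOM 8.39, HET2 7.94) and Tcl1 (8.59 and 9.29). HET2 embryos also enter the slopes, so both comparisons share them.

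HET1 and WT embryos differed in several of the same genes, and those embryos also enter the slopes. The mean of Ddias was 8.88 ± 0.76 (SD, n = 14) in WT and 7.37 ± 1.29 (n = 15) in HET1 embryos, a difference of -1.51 (limma adjusted p = 0.00333). Tcl1 was at 7.43 ± 1.30 and 9.87 ± 2.21, a difference of 2.44 (limma adjusted p = 0.00341), and Btg4 at 7.99 ± 0.78 and 9.56 ± 1.49, a difference of 1.58 (0.00713). These differences came mostly from the second HET1 litter, in which the maternal sum was also raised. By litter, Ddias was at 9.18 ± 0.42 (n = 10) and 8.12 ± 0.95 (n = 4) in WT and at 8.26 ± 1.08 (n = 7) and 6.60 ± 0.91 (n = 8) in HET1 embryos. Tcl1 was at 6.95 ± 1.23 and 8.61 ± 0.44 in the WT litters and at 8.01 ± 1.51 and 11.49 ± 1.16 in the HET1 litters. Knl1 had a difference of -0.23 and Cdipt of -0.01, with limma adjusted p of 0.669 and 0.994. Of the followers, 6 of 12 for Dppa2 and 6 of 81 for Dppa4 were called between HET1 and WT, where 15.1% of all genes tested were.

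Genes linked to the pair by function were counted in lists, against the shares of all genes called above, which give about 0 calls in a list of this size. Of the Dux network, Dux and the 2-cell genes downstream of it, 13 of 23 listed genes were tested and none was called for either gene. Dux itself, listed as Duxf3, had 25 reads in 7 embryos and was not among those tested. The median slope of the 13 was -0.67 on Dppa2, with 10 of 13 negative and 7 at an unadjusted p under 0.05 (1058 of all 6918 genes), and 0.01 on Dppa4. Over all genes the median slopes were -0.09 and 0.10, with 39.3% positive on Dppa2 and 60.6% on Dppa4. Zfp352, a 2-cell gene of this list, had a slope of -0.79 on Dppa2 (limma adjusted p = 0.167).

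None of 21 regulators of the 2-cell state was called for either gene, with median slopes of -0.06 and 0.33. Smarca5, a chromatin remodeller, had 0.41 on Dppa2 (limma adjusted p = 0.160), and Rif1, a repressor of 2-cell genes, had 0.35 (0.187) and, on Dppa4, -0.40 (0.0646). Of 14 genes for COMPASS, the H3K4 methyltransferase complexes, none was called, with medians of -0.29 on Dppa2 (13 of 14 negative) and 0.26 on Dppa4. Of 20 Polycomb genes 1, Bmi1, fell with Dppa4 and none was called for Dppa2, with medians of -0.03 and 0.07. Of 13 pluripotency genes none was called, with medians of -0.27 on Dppa2 and 0.30 on Dppa4, and Dppa3, which shields the maternal genome from demethylation, had slopes of -0.17 and 0.06.

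Slopes of maternal transcripts on Dppa2 were mostly negative. Of 34 maternal genes tested, 1 (Btg4) fell with Dppa2 and none rose, and the median slope was -0.31 with 32 of 34 negative, against 0.02 on Dppa4 with 16 negative. Of 36 genes of major ZGA, 1 (Npm1) rose with Dppa2 and none fell, with a median of 0.01, and the median on Dppa4 was 0.17 with none called. With re-centred embryos 9.93% of all genes rose with Dppa2 and 4.74% fell, and counts in the lists moved too. Rising were then 9 of 36 major ZGA genes, 6 of 20 Polycomb genes, 5 regulators and 1 COMPASS gene, and falling were 6 of 34 maternal genes, 3 of the Dux network and 2 each of the regulators, COMPASS and pluripotency genes. The maternal median on Dppa2 was then -0.13 and that of the Dux network -0.27. The summed level of the maternal list followed the litter. Its median was 11433 and 15656 RPM in the WT litters of mating 1 and 2, and 10362 and 33701 RPM in the HET1 litters. In mating 1 of the third cross it was 25971 RPM in HET2 and 23951 in HOM embryos, and in mating 2 it was 9758 in the single HET2 embryo and 11461 in HOM embryos. Its part in the Dppa2 level was not tested.

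Markers of other cells were low. Of 15 cumulus cell markers Amhr2 alone passed the filter on low values, Fst and Fshr had 0 reads in all 44 embryos, and the summed level was 11.7 to 79.1 RPM in WT, 6.35 to 90.9 in HET1, 8.12 to 34.5 in HET2 and 21.3 to 116 in HOM embryos. Amhr2 had a slope of 0.90 on Dppa4 (limma adjusted p = 0.0646). Of 8 sperm transcripts none passed the filter and the sum reached at most 2.44 RPM. The maternal list, by contrast, summed to 6102 RPM or more in every WT, HET1, HET2 and HOM embryo, and major ZGA genes to 3477 RPM or more.

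The genes next to the pair on the chromosome could not be set beside it. Of 4 protein-coding neighbours within 500 kb, Trat1 and Retnlb had 0 reads in all embryos, Gm5485 had 11 reads in 6 embryos, and Morc1, a gene of the male germ line, had 391 reads in 33 embryos. None passed the filter on low values.

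By the mean of the within-litter correlations with both genes, the transcript most like the pair was Spic, a PU.1-related transcription factor, with 0.48 (0.55 with Dppa2 and 0.40 with Dppa4). Others near the top were Pigx with 0.44, Nemp1 with 0.43 and Dnajc2 with 0.41, over 34 embryos and among genes with a mean of at least 5 log2 RPM. Exosc9 and Emc6 had 0.40, Fbxw2 and Fastkd3 0.39 and Mapk1ip1l 0.38. Among the least alike were Ppip5k2 with -0.47, Rasa2 and Abi1 with -0.43, and Sorbs2 and Tgds with -0.41, ahead of Mtmr2, Rfx7, Arhgap42 and Omt2a with -0.39 to -0.38. Of these genes Sorbs2, an adaptor of the actin cytoskeleton, was called in the slopes, with -0.69 on Dppa4 (limma adjusted p = 0.0477). The points of each correlation share a library and its depth, and they are given as a description.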

How the data were processed

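Single 2-cell embryos were lysed, cDNA was made from polyadenylated RNA by oligo-dT priming and amplified, and libraries were made by tagmentation. Per the submitters' processing notes and the study's methods, reads were trimmed with Trim Galore 0.6.5 and cutadapt 2.3, mapped to GRCm38 with HISAT2 2.1.0, and counted over mRNAs without regard to strand in SeqMonk. The authors deposited log2 RPM per gene and embryo, relative to all reads of the embryo, of which 67.9 to 84.8% lie in genes. Whole reads were recovered within 0.05 read for 99.9997% of values, and a gene without reads holds the value of 0.9 read. Values were raised to a common floor of 1.86 log2 RPM, and genes with a mean of at least 3 were tested.

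Levels, litters and slopes were fitted with limma 3.58.1 (R 4.3.3, trend in eBayes), with Benjamini-Hochberg adjustment over all genes. Ratios and correlations were tested by permutation (100000 resamples, or exact for small groups) with scipy 1.17.1. The genes named are those with the smallest p for each of Dppa2 and Dppa4, those most and least alike, and the most abundant of each list. Nipal1, and the embryos whose values are given singly, were chosen after their values were seen. The members and lists were chosen with earlier results of these data known. Tested on simulated data, the fits recovered 99.5% (Dppa2 slopes), 97.5% (Dppa4 slopes) and 89.5% (HET1 minus WT) of 200 genes changed by 2 log2 units, with 6, 12 and 8 false calls. Smaller changes were not simulated. No promoter motif was searched. Among the genes most and least like the pair, 2 are not reported here.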

Additional observations from a re-analysis of the deposited data

Results flagged for a closer look

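HET2 a had a Dppa4 level of 4.52 log2 RPM, set apart below the other 3 HET2 embryos of its litter, from 49 reads, with a gap of 0.878 of the group's range. The study assigned these embryos by this transcript, so the value is a description and not a test. The lowest and the highest value of each group of values were looked at, 36 in all. Chance sets such a sample apart in about 1 in 20 groups. The slope on Dppa4 differed between HET1 and WT embryos for Omt2a, an oocyte gene of a family with near-identical copies, by 1.03 (limma adjusted p = 0.0299), with slopes of -1.13 in WT and -0.10 in HET1 embryos. For Kmt2c, a COMPASS methyltransferase, it differed by 1.09 (limma adjusted p = 0.00877), with -0.93 in WT and 0.16 in HET1 embryos. Such a difference was called for 165 genes on Dppa4, 159 of them with the larger slope in HET1, and for 3 genes on Dppa2. Without WT j and k, a setting chosen after seeing the data, the difference was 0.59 for Omt2a (limma adjusted p = 0.701) and 0.52 for Kmt2c (0.692), and 0 genes were called on Dppa4. Both differences thus depend on these embryos.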

How the results depend on the processing

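The lower level of HET1 against WT kept its direction throughout but lost the call for Dppa2 and Dppa4 with litter as a random effect (-1.90 and -1.58), without the WT litter of mating 1 (-1.72 and -1.62, limma adjusted p = 0.0835 and 0.111) and without the HET1 litter of mating 2 (-1.15 and -0.67, 0.0729 and 0.156). With the mating number as a block, which the labels share between crosses that have different parents, the differences were -1.87 and -1.47 and stayed called. Leaving out each HET2 embryo in turn gave HET2 minus WT of -2.66 to -1.63 for Dppa2 and -2.08 to -1.76 for Dppa4. HET1 minus HET2 for Dppa2, given without a test, was 0.05 and took both signs, at -0.36 to 0.67 without single HET2 embryos and -0.16 with re-centred embryos.

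Counts of followers moved most. For Dppa2 (12) they were 0 with genes of a mean of at least 0, 51 at 5, 1015 with re-centred embryos, 7 with total reads as a covariate, 29 by limma voom and 1386 with the mating block in place of litter. Without a litter they were 0 (the HET2 litter of mating 1, the HET1 litter of mating 1 or the WT litter of mating 1), 52 (HET1 mating 2) and 35 (WT mating 2), and 0 to 61 without single HET2 embryos. For Dppa4 (81) they were 25 at a mean of at least 0, 0 re-centred, 12 by voom and 812 with the mating block. Without a litter they were 50 (HET2 mating 1), 9 (HET1 mating 1 or WT mating 1) and 215 (HET1 mating 2), and 37 to 127 without single HET2 embryos. WT embryos alone gave 0 and 307, and HET1 embryos alone 0 and 0. Chosen after seeing the data, the number of genes with reads as a covariate gave 122 for Dppa2, and leaving out WT j and k gave 504 for Dppa4. The causes were not tested.

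Of 80 values for the slopes of named genes 54 kept their side, 26 lost the call and 0 changed sign. The ratio changed sign without passing any test for WT mating 2 minus mating 1 (0.0587 by medians, 0.27 without WT j and k), for HET2 minus WT (-0.58 to 0.33 without single HET2 embryos, 0.16 without the WT litter of mating 1) and for HET1 minus HET2 (-0.69 to 0.22). Dppa4 between WT litters was 0.12 when re-centred. Dppa4 had as few as 3 reads, in HET1 l.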
